A study of Mus musculus with 3 samples.

Results

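The genes described here were 41 mouse genes of the extracellular matrix other than the collagen chains: matrix proteases and their inhibitors, cross-linking enzymes, glycoproteins, proteoglycans, elastic fibre proteins and plasminogen activators. They were listed by name for their known roles, with earlier results of these data already known. Their probes were found by matching the transcript accession of each array probe to a gene symbol. The list held 57 of the 55681 probes and 41 of the 20660 genes that could be named. Expression was measured on 3 one-colour Agilent mouse arrays of RNA from NIH3T3 cells, an immortalised line of mouse embryonic fibroblasts. The culture called None was labelled as untreated, and the others had received 20 µM AR7 or 20 µM BMS614. Treatment lasted 24 h, and each condition was represented by 1 array. AR7 is a small molecule made as an activator of chaperone-mediated autophagy that binds the retinoic acid receptor alpha, and BMS614 is a selective antagonist of that receptor. Whether the None culture received the solvent of the compounds is not given in the sources used here. The comparison asks how 2 ligands of the same receptor differ in what they do to the transcripts of a fibroblast.

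Fibroblasts build the matrix around them and also take it apart. Fibrillins, elastin and fibulins are laid down as elastic fibres, lysyl oxidases cross-link elastin and collagen, and proteoglycans space the fibrils. Matrix metalloproteinases and ADAMTS proteases cleave these proteins, TIMPs inhibit the metalloproteinases, and plasminogen activators feed a further proteolytic cascade. Retinoids are known for holding down stromelysin and collagenase genes in fibroblasts through their AP-1 sites.

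All 3 arrays lay on a single slide. Between 55.4% (None) and 61.8% (BMS614) of the probes were well above background by the scanner software's own flag, and the dimmest probe so marked had a log2 signal of 4.50 on None, 3.45 on AR7 and 3.67 on BMS614. A probe was treated as measured on an array only where it carried this flag, and is called at background otherwise. Of 10 fibroblast markers, 9 were measured on all 3 arrays, the exception being Fap, which stayed at background on each. Of the epithelial markers 3 of 6 were measured on all arrays, and Epcam, Krt18 and Cldn4 on none. Of the endothelial markers 3 of 5 and of the leukocyte markers 4 of 5 with a probe were measured throughout, Ptprc not on None. The highest log2 signals in these 2 lists were those of Itgam, at 14.66 on None, 14.72 on AR7 and 14.39 on BMS614, and Kdr, at 13.23, 13.23 and 13.09. Csf1r followed at 11.64, 11.56 and 11.46. Krt8, a simple-epithelium keratin, was the only gene of these 4 lists past 1.5-fold on probes measured throughout in a comparison with None, at 7.38 on None, 6.94 on AR7 and 6.62 on BMS614, and its part in the results below was not tested. In RNA from a whole culture, fewer cells making a transcript and less of it per cell cannot be told apart.

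Of the 41 matrix genes, 32 (78.0%) were measured on all 3 arrays, against 66.8% of all named genes. On no array was the probe well above background for Mmp3, Mmp13, Mmp15, Tnc, Postn, Has2 and Fbln1. Mmp10 and Plau were measured on some arrays only. Where a gene had several probes, the brightest stood for it, and levels are given as its normalized log2 signal, which compares arrays for 1 gene but not 1 gene with another. With 1 array per condition no test between conditions is possible, and the only error the arrays hold is that between copies of a spot. The error given after ± is the standard deviation (SD) of differences between copies of repeated probes at that brightness, unless another is named. It came from 267 probes printed 10 times and well above background on all arrays. Genes under their range, which began at a mean log2 signal of 4.62, were given the SD of the dimmest group. Such an SD covers spot-to-spot noise and none of the variation between cultures.

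**Figure D1:**
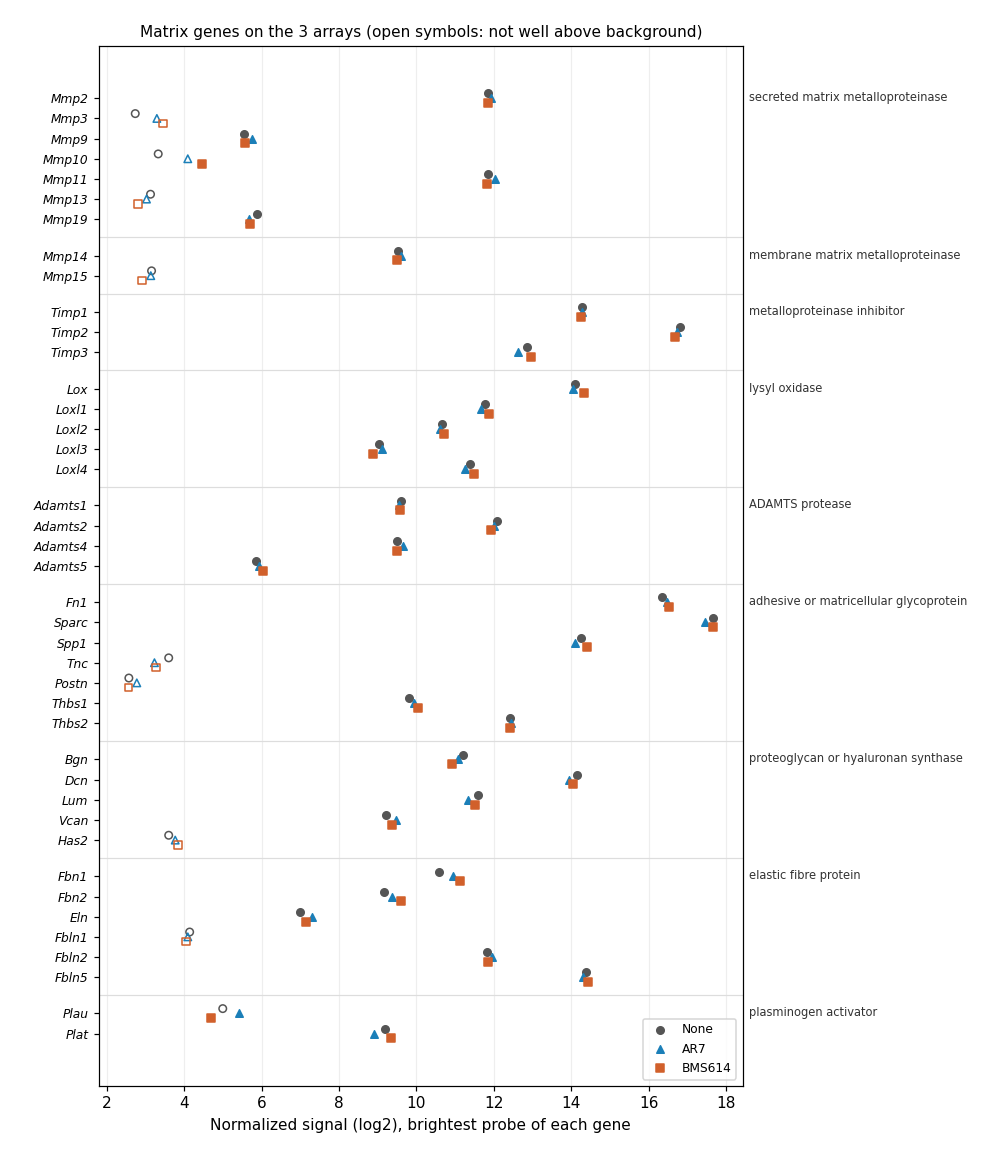
Normalized log2 signal (x axis) of the brightest probe of the 41 matrix genes, grouped by role (y axis), on the None, AR7 and BMS614 arrays; open symbols are not well above background. The symbols of a gene nearly coincide for most genes, and the 7 genes with open symbols on every array lie at or below 4.14.

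No matrix gene passed 1.5-fold against None with either compound. With AR7 this was 0 of the 33 genes measured on at least 1 of the compared arrays, where 3.73% of all named genes passed. With BMS614 it was 0 of 34, where 4.06% passed. Between the compounds, 1 of 34 passed (Plau), where 4.71% of all named genes did. At a lower threshold, a log2 difference of 0.32, 3 of 33 genes passed with AR7 (Fbn1, Eln and Plau, all higher), where 11.3% of all named genes did, and 2 of 34 with BMS614 (Fbn1 and Fbn2, both higher), where 12.2% did. The widest differences from None on probes measured throughout were those of Fbn1, which was 1.29-fold higher with AR7 and 1.46-fold higher with BMS614.

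Small differences were common all the same. Of the 32 genes measured on all arrays, 15 differed from None by more than 2 SD of repeated spots with AR7, against 18.7% of all named genes, 7 of them higher (9.68% of all genes) and 8 lower (8.98%). With BMS614 11 of 32 did, against 26.2%, 7 of them higher (13.9% of all genes) and 4 lower (12.3%). Because bright probes have smaller spot noise and most matrix genes were bright, the same was counted among genes whose log2 signal averaged 8 or more over the arrays. There, 15 of 28 matrix genes (53.6%) passed with AR7 against 21.1% of all such genes, and 11 of 28 (39.3%) passed with BMS614 against 29.6%. In that brighter set the median absolute difference was 0.13 with AR7 and 0.10 with BMS614 on the log2 scale, beside 0.06 and 0.08 over all such genes. The signed medians over the 32 genes were near 0, at -0.02 with AR7 (15 higher, 17 lower) and 0.02 with BMS614 (19 higher, 13 lower).

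**Figure D2:**
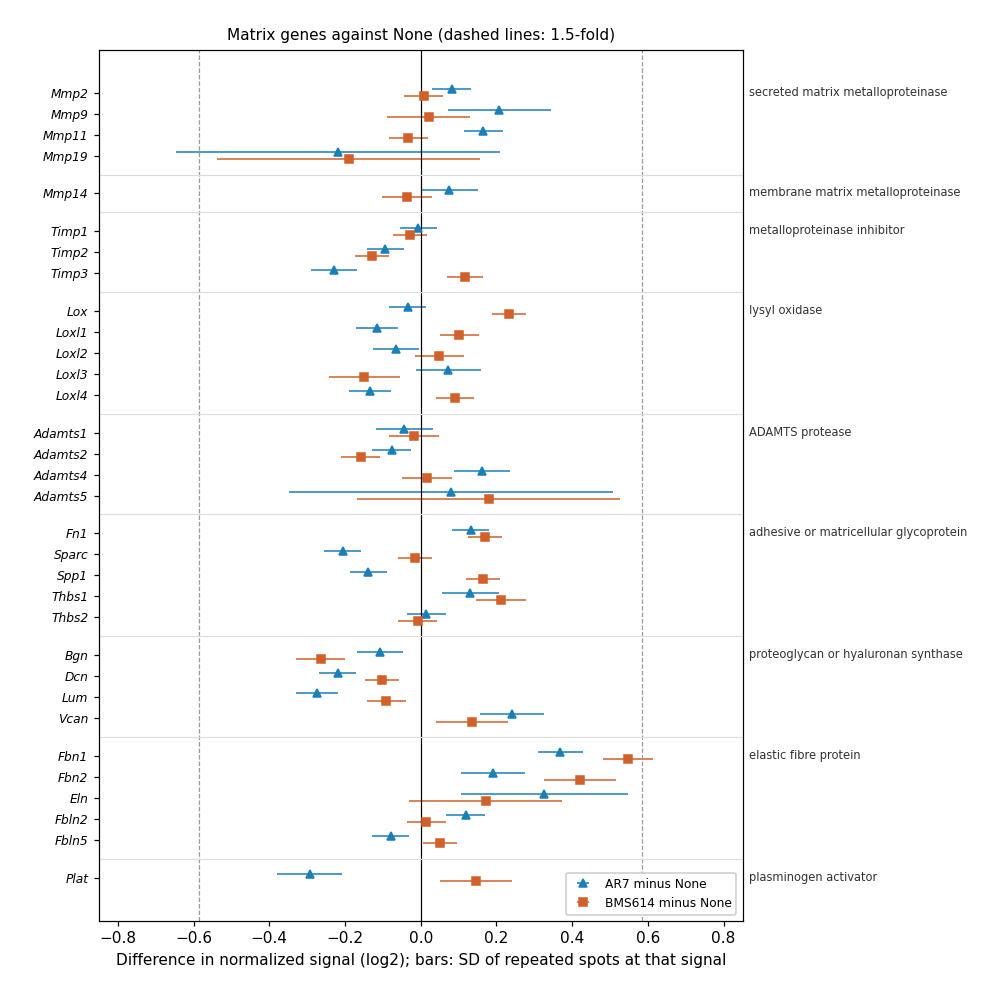
Difference in normalized log2 signal from None (x axis) for AR7 (triangles) and BMS614 (squares) of the 32 matrix genes measured on all 3 arrays, grouped by role (y axis); bars are the SD of repeated spots at that signal and dashed lines mark 1.5-fold. All points lie inside the dashed lines, with Fbn1 the farthest to the right at 0.37 and 0.55.

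Among genes measured throughout, the widest single differences from None were those of elastic fibre proteins, of which 5 of 6 were measured on all arrays. Fbn1, which encodes fibrillin-1, the main microfibril protein, had a log2 signal of 10.58 on None, 10.95 on AR7 and 11.13 on BMS614. It was lowest on None, by 0.37 ± 0.06 (SD of repeated spots) against AR7 and by 0.55 ± 0.07 against BMS614. Fbn1 has 1 probe, and under the 4 other backgrounds and scalings tried the differences lay between 0.35 and 0.37 with AR7 and between 0.53 and 0.55 with BMS614. Fbn2, encoding the fibrillin made mostly during development, stood in the same order, at 9.17 on None, 9.36 on AR7 and 9.59 on BMS614. Its differences were 0.19 ± 0.09 and 0.42 ± 0.10, the latter 1.34-fold. A second Fbn2 probe was at background on all arrays, and averaging it in changed the sign of both differences, to -0.19 and -0.05. Eln, encoding elastin itself, was dimmer, at 6.98, 7.31 and 7.15. It lay above None with AR7 by 0.33 ± 0.22, within 2 SD of repeated spots.

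The fibulins, which join microfibrils to elastin and to basement membranes, differed less. Fbln2 read 11.83 on None, 11.95 on AR7 and 11.84 on BMS614, higher on AR7 than on None by 0.12 ± 0.05. Fbln5, needed for elastic fibre assembly, read 14.37, 14.29 and 14.42, and neither difference from None passed 2 SD. Fbln1 was at background on all arrays. Of the 5 measured elastic fibre genes, Fbn1, Fbn2 and Fbln2 were higher than None by more than 2 SD with AR7, and Fbn1 and Fbn2 with BMS614, where 9.68% and 13.9% of all named genes were. The median over the 5 was 0.19 with AR7 and 0.17 with BMS614, beside -0.00 and 0.00 over all named genes.

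Among the plasminogen activators, Plat and Plau stood in opposite orders on AR7 and BMS614. Plat, encoding the tissue-type activator, had a log2 signal of 9.20 on None, 8.91 on AR7 and 9.35 on BMS614. AR7 was the lowest array, by -0.29 ± 0.09 against None (0.816-fold) and by -0.44 ± 0.09 against BMS614 (0.737-fold). Plau, encoding the urokinase-type activator, was dim, with 4.99 on None, 5.43 on AR7 and 4.70 on BMS614. It was not well above background on None, where its own signal lay above that on BMS614, so no fold was given for BMS614 against None. With AR7 it lay above its None signal, which is a bound, by 0.43 ± 0.43, and this difference ran from 0.15 with the normexp background to 0.74 with the processed signal. Between the compounds it was 1.66-fold higher with AR7, 0.73 ± 0.39 on the log2 scale and within 2 SD of repeated spots. This single call was lost under 3 other ways of computing the signal: the processed signal, the normexp background and the deposited table each left 0 matrix genes past 1.5-fold.

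The secreted metalloproteinases divided into a measured and a dim set. Mmp2, gelatinase A, read 11.84 on None, 11.92 on AR7 and 11.85 on BMS614, all within 2 SD of each other. Mmp11, stromelysin 3, an enzyme of remodelling stroma, read 11.85, 12.02 and 11.82. It was highest on AR7, by 0.17 ± 0.05 over None and by 0.20 ± 0.04 over BMS614, while its second probe gave 0.03 and -0.05. Mmp19 was dim but measured, at 5.88, 5.67 and 5.69. Its differences from None, -0.22 and -0.19, were smaller than the SD of repeated spots there, 0.43 and 0.35.

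Mmp9, gelatinase B, was the matrix gene printed 10 times on each array, so its own spots show the technical spread. The mean log2 signal was 5.54 ± 0.25 (SD over 10 spots) on None, 5.75 ± 0.29 on AR7 and 5.56 ± 0.17 on BMS614. The spots of the arrays overlapped, with 5.09 to 5.88 on None and 5.29 to 6.09 on AR7. Taken position by position, the difference of AR7 from None was 0.21 ± 0.39 and above 0 at 8 of 10 positions. That of BMS614 from None was 0.02 ± 0.32 and above 0 at 5 of 10. Copies of a spot on 1 array are not replicates of the treatment.

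**Figure D3:**
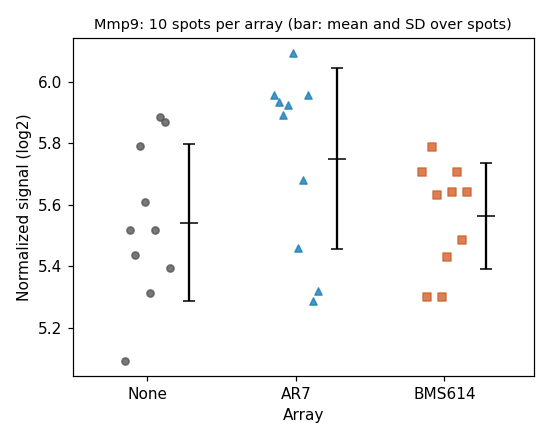
Normalized log2 signal (y axis) of the 10 spots of Mmp9 on each array (x axis); the bar beside each column is the mean and SD over spots. The AR7 spots run highest, to 6.09, but overlap those of None and BMS614.

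Mmp3 and Mmp10, stromelysins 1 and 2, and Mmp13, collagenase 3, were at or near background. Mmp3 read 2.73, 3.29 and 3.45 and Mmp13 read 3.13, 3.02 and 2.81, none of them well above background, so no fold was given. Mmp10 read 3.33 on None, 4.09 on AR7 and 4.47 on BMS614 and was measured on BMS614 only. Its signal there lay under the dimmest measured probe of the None array, which leaves no fold against None. AR7 lay below it by -0.38 ± 0.39, within 1 SD as taken from brighter probes, and by -0.11 with the normexp background. RefSeq's promoter table (GRCm38.p6) held an entry for 23 of the 41 matrix genes, with 28 start sites. The AP-1 motif TGAGTCA, searched on both strands in the 250 bases before each start, was found in 3 of the 28 windows, those of these 3 genes, and in 4.46% of all 32851 promoters. The promoters are shown with Fbn1, which differed most from None among genes measured throughout and whose window held none of the motifs searched. Capitals mark the AP-1 motif and the TATAAA motif, and each run is read 5′ to 3′ on the gene's strand and ends at the base before the start.
Mmp3, chr9:7445572-7445821, plus strand: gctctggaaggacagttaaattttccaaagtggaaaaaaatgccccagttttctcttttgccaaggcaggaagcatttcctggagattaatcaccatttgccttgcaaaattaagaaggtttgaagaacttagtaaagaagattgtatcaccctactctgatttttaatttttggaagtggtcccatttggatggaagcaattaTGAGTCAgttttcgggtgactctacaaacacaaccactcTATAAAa
Mmp10, chr9:7502092-7502341, plus strand: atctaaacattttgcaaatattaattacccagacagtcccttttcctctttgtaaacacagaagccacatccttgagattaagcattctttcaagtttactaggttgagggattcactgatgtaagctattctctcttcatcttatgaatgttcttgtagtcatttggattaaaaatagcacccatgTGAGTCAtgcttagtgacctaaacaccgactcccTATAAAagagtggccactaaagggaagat
Mmp13, chr9:7272264-7272513, plus strand: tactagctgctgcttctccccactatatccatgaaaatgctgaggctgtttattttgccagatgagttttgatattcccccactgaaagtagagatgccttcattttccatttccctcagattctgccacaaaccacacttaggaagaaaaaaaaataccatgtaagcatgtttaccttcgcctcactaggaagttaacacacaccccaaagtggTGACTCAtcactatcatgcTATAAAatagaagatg
Fbn1, chr2:125506439-125506688, minus strand: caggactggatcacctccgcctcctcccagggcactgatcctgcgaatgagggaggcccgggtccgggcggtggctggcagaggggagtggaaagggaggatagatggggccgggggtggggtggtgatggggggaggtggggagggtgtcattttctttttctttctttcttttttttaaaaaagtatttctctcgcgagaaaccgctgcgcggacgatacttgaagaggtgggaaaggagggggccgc
The AP-1 motif lay at -46 to -40 from the start in Mmp3, at -63 to -57 in Mmp10 and, on the other strand, at -35 to -29 in Mmp13. TATAAA, searched on both strands, was present in 9 of the 28 windows against 12.4% of all promoters. The retinoic acid half-site AGGTCA, on either strand, was present in 2 of the 28 (Mmp10 and Postn) against 14.0% of all promoters, and did not overlap the AP-1 motif of Mmp10. Its direct repeats DR5 and DR2, the spacings known for retinoic acid receptors, were found in none of these windows and in 3 promoters each of the whole table. Such matches describe the letters in the window and not a bound site.

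Of the membrane-anchored metalloproteinases, Mmp14, which activates the Mmp2 proenzyme at the cell surface, read 9.52 on None, 9.60 on AR7 and 9.49 on BMS614. Mmp15 was at background on every array. Of their inhibitors, Timp1 read 14.27, 14.26 and 14.24 on None, AR7 and BMS614, and its arrays could not be told apart within the spot SD. Timp2 read 16.81, 16.72 and 16.68, with -0.09 ± 0.05 for AR7 and -0.13 ± 0.05 for BMS614 against None, of which the latter passed 2 SD. Its second probe, also measured on all arrays, gave -0.11 ± 0.05 with AR7, past 2 SD, and -0.04 ± 0.05 with BMS614, within 1 SD. Between the compounds the brightest Timp2 probe gave 0.04 ± 0.04 and the second -0.07 ± 0.04. Timp3, the inhibitor that stays bound to the matrix, stood apart between the compounds, at 12.85 on None, 12.62 on AR7 and 12.96 on BMS614. It was lowest on AR7, by -0.23 ± 0.06 against None and by -0.35 ± 0.04 (0.787-fold) against BMS614. On the brightest probes Timp3 was thus the 1 TIMP past 2 SD with AR7, while the second probe of Timp2 passed as well.

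All 5 lysyl oxidases were measured. Past 2 SD of repeated spots on the brightest probe were Loxl1 and Loxl4 with AR7, both lower than None, and Lox with BMS614, higher than None. Over all named genes 8.98% were lower in this way with AR7 and 13.9% higher with BMS614. Lox, the founding member, read 14.08 on None, 14.05 on AR7 and 14.32 on BMS614. Its difference was 0.23 ± 0.05 with BMS614 and -0.03 ± 0.05 with AR7, and its second probe gave 0.17 and -0.06. Loxl1, which acts on elastin, read 11.78, 11.66 and 11.88, with -0.12 ± 0.06 for AR7 against None and -0.22 ± 0.05 for AR7 against BMS614. Its second probe, also measured on all arrays, gave -0.02 ± 0.07 for AR7 against None and 0.08 for AR7 against BMS614. The average over both probes was -0.07 between the compounds. Loxl4 read 11.39, 11.25 and 11.48, with -0.13 ± 0.06 for AR7 against None and -0.23 ± 0.05 against BMS614. Its second probe gave -0.06 between the compounds, and the average was -0.14. The size of these differences, and for Loxl1 the direction, therefore depends on the probe. Loxl2 read 10.66, 10.60 and 10.71 on its brightest probe, within 2 SD of None on both arrays, and its second probe lay 0.48 ± 0.43 above None with AR7. Loxl3 read 9.03, 9.11 and 8.88, with AR7 over BMS614 by 0.22 ± 0.09 and neither compound past 2 SD against None.

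The ADAMTS proteases cleave proteoglycans and procollagens and showed small differences. Adamts1 read 9.59 on None, 9.55 on AR7 and 9.58 on BMS614. Adamts4, an aggrecanase, read 9.49, 9.65 and 9.51, higher on AR7 by 0.16 ± 0.07. Adamts5, the other main aggrecanase, read 5.85, 5.93 and 6.03, and its differences were within 2 SD of repeated spots. Adamts2, which trims the amino end of procollagens, read 12.08, 12.01 and 11.92, lowest on BMS614 by -0.16 ± 0.05 against None, a difference that became 0.04 when a second probe, dim on None, was averaged in.

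Among the adhesive and matricellular glycoproteins, 5 of 7 were measured and 3 of these were higher than None with BMS614 by more than 2 SD (13.9% of all named genes were). Fn1, fibronectin, the main adhesive protein of the fibroblast matrix, read 16.35 on None, 16.48 on AR7 and 16.52 on BMS614. It lay above None by 0.13 ± 0.05 and 0.17 ± 0.05. Thbs1, thrombospondin 1, which can activate latent TGF-beta, read 9.82, 9.95 and 10.03, by 0.13 ± 0.07 and 0.21 ± 0.07, of which the latter passed 2 SD. Thbs2 read 12.42, 12.44 and 12.41, within 1 SD.

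Sparc and Spp1 had AR7 as their lowest array. Sparc, a collagen-binding protein of remodelling tissue, read 17.67, 17.46 and 17.65, and AR7 lay below None by -0.21 ± 0.05 on this probe and by -0.14 on the second. With BMS614 it was at -0.02 ± 0.05 from None, but at -0.17 with the processed signal, -0.16 with 75th percentile scaling and -0.19 with the deposited table. Spp1, osteopontin, read 14.24, 14.10 and 14.40. It was on opposite sides of None, at -0.14 ± 0.05 with AR7 and 0.17 ± 0.05 with BMS614, and AR7 was 0.810-fold of BMS614. Tnc, tenascin C, and Postn, periostin, were at background throughout.

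The small leucine-rich proteoglycans, which bind collagen fibrils and limit their width, were read from 1 probe each. Past 2 SD below None were Lum and Dcn with AR7 and Bgn and Dcn with BMS614, where 8.98% and 12.3% of all named genes were. Lum, lumican, read 11.60 on None, 11.32 on AR7 and 11.51 on BMS614, at -0.27 ± 0.06 (0.827-fold) with AR7 and -0.09 ± 0.05 with BMS614. Dcn, decorin, read 14.15, 13.93 and 14.05, at -0.22 ± 0.05 and -0.10 ± 0.05. Bgn, biglycan, read 11.19, 11.08 and 10.93 and was lowest with BMS614, at -0.26 ± 0.07 against -0.11 ± 0.06 with AR7. Between the compounds Lum and Dcn were lower with AR7, by -0.18 ± 0.05 and -0.12 ± 0.04, and Bgn was higher, by 0.16 ± 0.06.

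Vcan, encoding versican, a large proteoglycan that binds hyaluronan, gave probe-dependent values. Its brightest probe read 9.22 on None, 9.46 on AR7 and 9.36 on BMS614, above None by 0.24 ± 0.09 and 0.13 ± 0.10. The second, designed to another transcript of the gene, read 8.74, 8.60 and 9.12, with -0.14 for AR7 and 0.38 ± 0.10 for BMS614. The probes differ on whether AR7 lay above or below None, so no single direction can be given for Vcan with AR7. Between the compounds they differ as well, with 0.11 ± 0.09 for AR7 against BMS614 on the brightest and -0.52 ± 0.09 on the second. Has2, a hyaluronan synthase, was at background on all arrays.

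**Figure D4:**
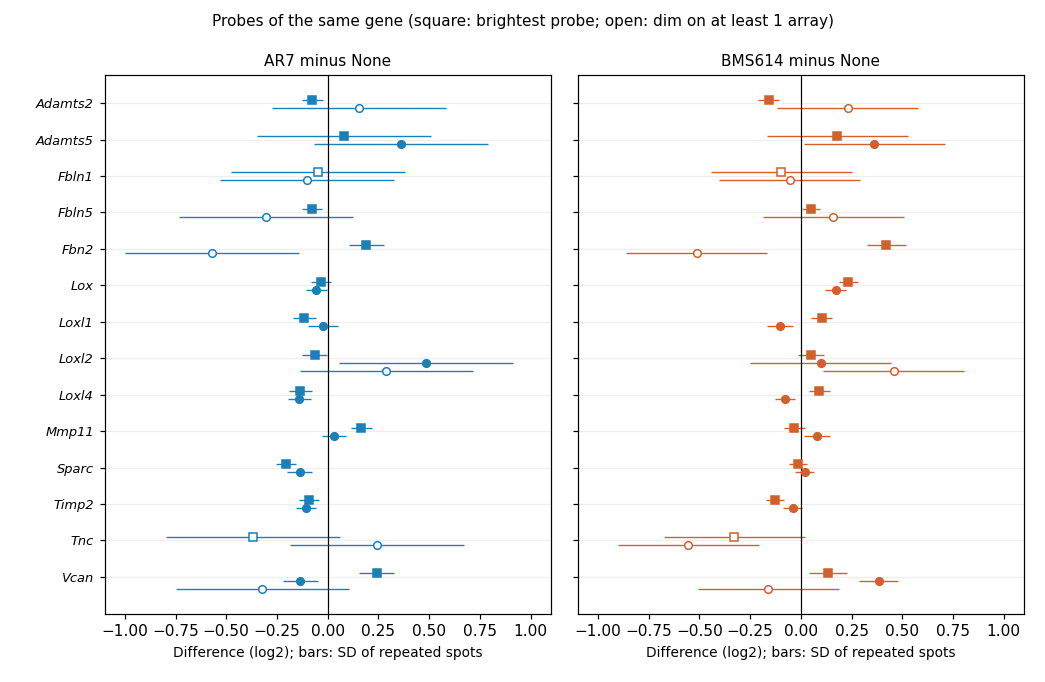
Differences in normalized log2 signal from None (x axes) with AR7 (left) and BMS614 (right) for each probe of the 14 matrix genes with several probes (y axis); squares are the brightest probe and open symbols probes dim on at least 1 array. The probes of Sparc and Lox lie on the same side of 0 in the AR7 panel, and those of Vcan and Loxl2 do not.

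Set directly against each other at matched dose and time, the compounds differed by more than 2 SD of repeated spots in 19 of the 32 matrix genes measured throughout, against 28.6% of all named genes. With AR7 6 were higher (14.2% of all genes) and 13 lower (14.4%). All 9 measured fibroblast markers also read lower with AR7 than with BMS614, by -0.02 to -0.17 (median -0.08), where 49.3% of all named genes read higher. Col1a1 lay at -0.17 ± 0.04 and Pdgfra at -0.17 ± 0.01. Of the other markers measured throughout, 1 of 3 epithelial, 2 of 3 endothelial and 2 of 4 leukocyte genes read higher with AR7. The widest of these was Itgam at 0.33 ± 0.04. The part of the markers in the matrix differences was not tested. Among genes whose log2 signal averaged 8 or more, the share of matrix genes past 2 SD was 67.9% (19 of 28), against 35.1%. On the brightest probes 4 genes of 34 were past a log2 difference of 0.32 (13.1% of all named genes). They were Plau, higher with AR7, and Plat, Timp3 and Mmp10, lower with AR7, the last as a bound within 1 SD. Spp1 at -0.30 ± 0.04, Lox at -0.27 ± 0.04 and Fbn2 at -0.23 ± 0.09 came next on the lower side, with Loxl4 and Loxl1 close behind on their brightest probes only. On the higher side the widest among genes measured throughout were Loxl3 at 0.22 ± 0.09, Mmp11 at 0.20 ± 0.04 and Mmp9 at 0.19 ± 0.34 (SD over its 10 spots). Averaged over its probes Mmp11 came to 0.07. The median over the 32 genes was -0.03 and its median absolute value 0.14, beside 0.09 over all named genes. BMS614 was the highest array for 13 of the 32 genes and AR7 the lowest for 13, where 35.7% and 32.3% of all named genes were so ordered. The differences of each compound from None share the None array, so they are given side by side and were not correlated.

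**Figure D5:**
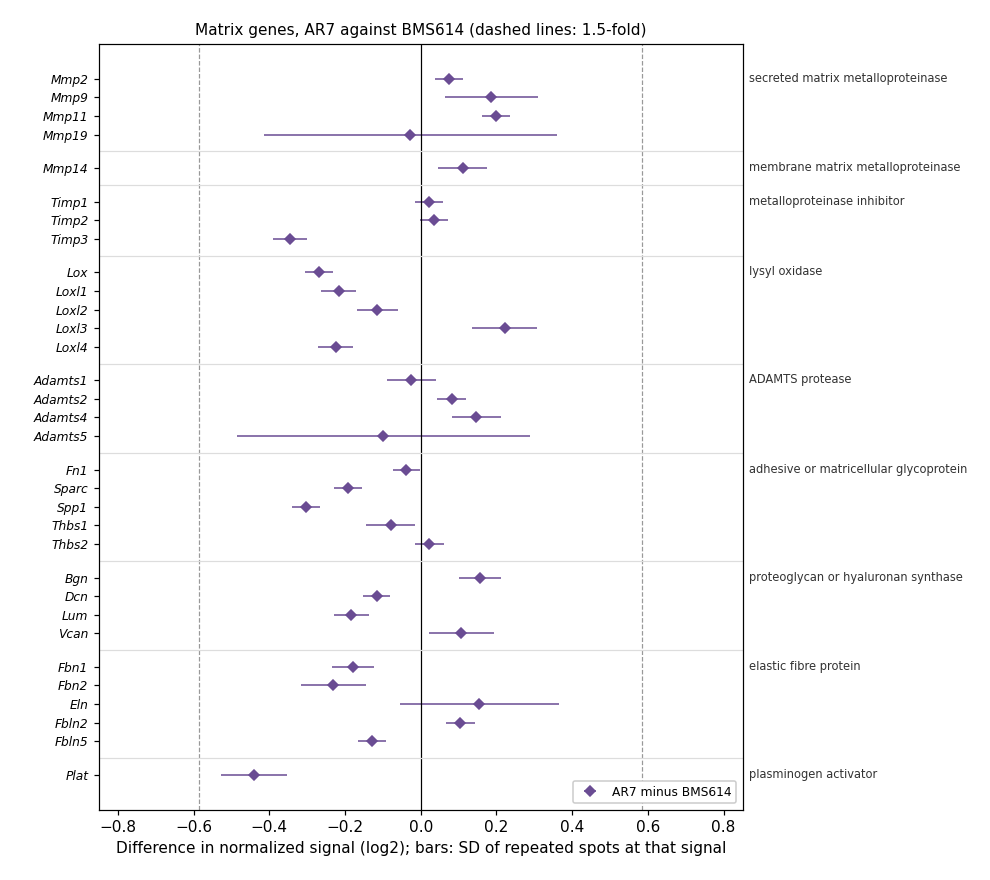
Difference in normalized log2 signal between AR7 and BMS614 (x axis, positive where AR7 is higher) of the 32 matrix genes measured on all arrays, by role (y axis); bars are the SD of repeated spots and dashed lines mark 1.5-fold. Plat at -0.44 and Timp3 at -0.35 lie farthest from 0, and Spp1 and Lox follow at -0.30 and -0.27.

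Further matrix proteases, inhibitors and receptors were read from lists of their own, under the same filter and bounds. Of the other metalloproteinase, ADAMTS and ADAM genes, 4 of 22 passed 1.5-fold with AR7, where 3.73% of all named genes did, and 6 of 22 with BMS614, where 4.06% did. Their signals on None, AR7 and BMS614 were at most 6.29. Those measured on all arrays were Mmp24, a neuronal membrane-type enzyme, at 5.52, 6.29 and 6.09, Mmp23 at 5.70, 5.39 and 5.10, and Adamts18 at 4.74, 4.71 and 5.62. The 0.78 ± 0.43 of Mmp24 with AR7 and the -0.60 ± 0.35 of Mmp23 with BMS614 lay within 2 SD, and the 0.89 ± 0.35 of Adamts18 with BMS614 did not. The others were not measured on every array. Adamts6, measured on None only, was at least 5.07-fold lower with AR7 and at least 4.36-fold lower with BMS614. Adamts10 was at least 1.56-fold lower with AR7 and 0.528-fold with BMS614, and Mmp7 at least 1.62-fold higher with AR7. Adamts3 and Adamts12 were at least 1.67-fold and 1.56-fold higher with BMS614. Those 5 genes were named after their values were seen, as was A2m, a broad protease inhibitor, at least 1.65-fold higher with BMS614. It was the 1 of 8 other inhibitors past 1.5-fold with BMS614, and with AR7 0 of 7 were. Of 21 matrix receptors 0 passed with AR7 and 1 with BMS614, namely Itga1, a collagen-binding integrin chain, at 6.36, 6.33 and 5.67 and by -0.70 ± 0.20.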

How the data were processed

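RNA of 3 NIH3T3 cultures was hybridised to Agilent Mouse 8x60K arrays, 1 per condition. The deposited scanner files hold spot intensity, in linear units, with background flags (a coded score of 0 or 1 per spot) from Feature Extraction 10.7.3.1. A deposited table holds the authors' background-subtracted intensity scaled per array, whose 75th percentile was 599 on None and AR7 and 600 on BMS614. The study's methods name RMA in the oligo package. Here the RMA background was computed from the median intensity of each spot, control spots were removed, the 3 arrays were quantile-normalized (limma 3.58.1, R 4.3.3), log2 was taken and spots of a probe were averaged. The background script was tested on simulated data. Outlier-flagged spots were dropped, of which 0 belonged to the matrix genes, and 0 of their probes were saturated.

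Probes were named through their RefSeq accession (GRCm38.p6, for names and promoters only): 27235 of 55681 matched 1 symbol. A gene was counted where its probe was well above background on at least 1 compared array. Where 1 array was dim, the bright signal was set against the higher of the dim probe's own signal and the lowest measured signal of that array, as a bound ("at least"). Depth does not apply to arrays, and their number, 1 per condition, limits the precision, so no p-value was computed. All matrix genes are named. Of the other lists, those measured on all arrays and past 1.5-fold against None are named, with the exceptions said in the text. Further exceptions are the TGF-beta pathway genes and cell type markers that are named without passing 1.5-fold. The genes and lists were chosen with earlier results of these data known. Promoter motifs were counted in Python 3.11.15 (pandas 2.3.3, numpy 2.4.6) and figures drawn with matplotlib 3.10.9. The alternatives were Agilent's processed signal scaled to its 75th percentile, normexp background (offset 50), 75th percentile scaling, the deposited table with values under 16 set to 16, averaging every probe of a gene, a lower and a higher fold threshold, and a stricter or no filter on dimness. The differences of each gene between AR7 and BMS614 under these alternatives were added after seeing the data.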

Additional observations from a re-analysis of the deposited data

How the results depend on the processing

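Under the alternatives the median of the matrix genes lay between -0.07 and -0.01 with AR7, between 0.01 and 0.02 with BMS614 and between -0.03 and -0.02 between the compounds, all in log2. The number of matrix genes past 1.5-fold with AR7 against None was 0 and became 1 with the processed signal (Plau), 3 at a log2 difference of 0.32 (Fbn1, Eln and Plau) and 1 without the filter on dim probes (Mmp10). With BMS614 against None it was 0 and became 2 at that lower threshold (Fbn1 and Fbn2) and 2 without the filter (Mmp3 and Mmp10). Between the compounds it was 1 and became 0 with the processed signal, the normexp background, the deposited table, 2-fold or probes measured on all 3 arrays alone, and 4 at the lower threshold. The stricter thresholds and filters do this by construction, and for the others the cause was not tested.

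Over all named genes the background itself depended on the signal used. With AR7 against None 280 were higher and 279 lower, against 378 and 89 with the processed signal, 32 and 19 with the normexp background, 386 and 228 with 75th percentile scaling and 120 and 37 with the deposited table. With BMS614 the counts were 296 and 316, against 402 and 139, 29 and 27, 416 and 259 and 106 and 100. Between the compounds they were 347 and 375, against 213 and 141, 34 and 28, 397 and 334 and 129 and 43. Of the 32 matrix genes measured throughout, 27 kept their sign under all 5 alternative signals with AR7, 22 with BMS614 and 25 between the compounds. No paired analysis was possible because only a single array exists per condition, and for the same reason leaving out a replicate was not possible.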

Other observations

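Genes of the TGF-beta pathway, a main inducer of matrix genes in fibroblasts, were read as a further list. Of its 20 genes 18 were measured on all arrays and 0 passed 1.5-fold against None, where 3.73% of all named genes did with AR7 and 4.06% with BMS614. With AR7 14 of the 18 were higher than None (median 0.08 on the log2 scale) and with BMS614 13 of 18 (median 0.14), where 48.7% and 50.3% of all named genes were higher and the medians were -0.00 and 0.00. The latent TGF-beta binding proteins belong to the same structural family as the fibrillins and hold the latent growth factor in the matrix. They were above None by more than 2 SD of repeated spots, except Ltbp1 with AR7. Over all named genes 9.68% were so with AR7 and 13.9% with BMS614. Ltbp4 read 12.03 on None, 12.36 on AR7 and 12.33 on BMS614, and Ltbp3 read 12.19, 12.45 and 12.42. Ltbp2 read 13.43, 13.66 and 13.57, and Ltbp1 read 10.73, 10.76 and 11.01, so that it stood apart from None with BMS614 alone, by 0.28 ± 0.07. Tgfbr1, the type I receptor, read 10.21, 10.39 and 10.52. Of the target genes Ccn2, connective tissue growth factor, read 9.51, 9.59 and 9.81, and Ccn1 read 9.24, 9.41 and 9.47. None of the genes below None with either compound passed 2 SD.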
